A study of Mus musculus with 4 samples.

Results

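Interferon-stimulated genes are switched on by secreted interferons, which bind receptors that signal through Janus kinases to transcription factors of the STAT and IRF families. Their products sense foreign nucleic acids, block viral replication, and load peptides onto MHC class I for display to T cells. In tumor cells the same genes also mark an ongoing interferon response. Described here are 49 such genes in YUMM1.7 cells, a mouse melanoma line engineered with activated Braf and deactivated Cdkn2a, among other changes. They are 49 of the 16537 genes in the table and include the antigen presentation genes that interferon controls. The genes were chosen by name, with earlier results of these libraries in view, and a contrast between replicates as well as one between fractions stood in that choice. The members' own values in both contrasts are therefore a description and no independent evidence.

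Cells of this line, all of 1 genotype (labelled wildtype) and not treated otherwise, were plated overnight on inserts whose lower side was coated with fibronectin. The 1-µm pores let protrusions pass to the lower side and kept cell bodies above. RNA-seq was done on 2 libraries of protrusions and 2 of cell bodies, 1 of each per biological replicate, and each replicate pooled 6 inserts. No source used here says on which day, passage or batch of medium either replicate was made, so the replicate number and any such factor cannot be told apart. With 2 libraries a group, p-values measure only the spread between these libraries. Both libraries of a replicate came from the same inserts, so p-values between replicates measure no spread between independent cultures.

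The libraries held 25854943 to 30994908 reads assigned to genes. Levels are given as TPM, which corrects reads for transcript length and for the library total, and the reads behind them were recovered from the table. Of 18 melanoma line markers, 13 were in the table and 7 reached a mean of 1 TPM. Axl stood between 417 and 595 TPM, Pax3 between 12.4 and 14.6 TPM and Mitf between 5.12 and 6.17 TPM, whereas the pigment genes Tyr and Pmel stayed at or below 0.762 TPM. Of 20 immune cell markers, 10 were in the table, with a summed level of 4.65 and 4.54 TPM in protrusions of replicates 2 and 1, and 7.48 and 4.07 TPM in cell bodies. Ptprc, the pan-leukocyte marker CD45, did not exceed 0.0785 TPM in any library, and all 5 endothelial markers together stayed at or below 0.214 TPM. The library of protrusions of replicate 1 stood apart by liver transcripts, whose 23 markers summed to 94.9 TPM there, against 4.51 TPM in protrusions of replicate 2 and 4.03 and 1.81 TPM in cell bodies. The members' differences between replicates are therefore given for each fraction apart, whereas tests of the replicate contrast used all 4 libraries.

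Stretches of promoter are printed for 11 of the 49 genes, because the interferon response acts through short DNA elements and these genes carry them. The ISRE, the element bound by STAT and IRF complexes after type I interferon, was searched as its core GAAANNGAAA or, on the other strand, TTTCNNTTTC. The GAS element, bound by STAT dimers, was searched as TTCNNNGAA, whose letters read the same on both strands. Sequences are from RefSeq on GRCm38.p6, run 5′ to 3′ on the strand of the gene and end before the annotated start. Capitals mark the matches. In the first set the only matches are ISRE cores.
Isg15 (chr4:156200856-156200915, minus strand): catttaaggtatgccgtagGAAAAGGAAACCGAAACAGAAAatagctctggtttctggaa
Ifit1 (chr19:34640769-34640828, plus strand): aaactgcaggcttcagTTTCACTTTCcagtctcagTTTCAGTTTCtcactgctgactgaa
Ifit3 (chr19:34583365-34583424, plus strand): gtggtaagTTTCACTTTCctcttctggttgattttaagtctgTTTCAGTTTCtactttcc
Gbp3 (chr3:142559977-142560036, plus strand): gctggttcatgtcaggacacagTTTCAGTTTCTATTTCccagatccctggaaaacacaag
Irgm1 (chr11:48871421-48871480, minus strand): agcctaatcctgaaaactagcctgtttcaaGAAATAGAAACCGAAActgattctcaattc
Rsad2 (chr12:26456538-26456597, minus strand): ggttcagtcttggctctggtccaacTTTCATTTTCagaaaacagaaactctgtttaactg
B2m (chr2:122147523-122147582, plus strand): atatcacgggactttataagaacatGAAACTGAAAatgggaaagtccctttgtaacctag
The next pair of genes holds both elements, which overlap in Bst2.
Bst2 (chr8:71537568-71537627, minus strand): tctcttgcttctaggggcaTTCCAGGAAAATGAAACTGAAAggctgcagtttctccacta
Igtp (chr11:58199491-58199550, plus strand): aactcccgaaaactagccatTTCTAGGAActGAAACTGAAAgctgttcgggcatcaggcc
The last set holds a GAS core only.
Irf1 (chr11:53769898-53769957, plus strand): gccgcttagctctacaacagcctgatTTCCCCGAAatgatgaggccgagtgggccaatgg
Psmb8 (chr17:34198072-34198131, plus strand): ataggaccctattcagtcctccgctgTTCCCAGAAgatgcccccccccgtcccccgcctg

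Of the 49 genes, 40 had a promoter in the RefSeq table, each a window of 300 bases, 250 before and 50 after the start. An ISRE core lay in a window of 18 of them (45.0%), and in 30 of 62 other interferon genes (48.4%). Among all 27025 genes with a promoter entry, 1079 held one (3.99%), and 3.44% of the 32851 windows did. A GAS core lay in 10 of the 40 (25.0%), against 9.55% of all genes, and both elements lay in Bst2, Igtp, Ifitm3 and Eif2ak2. In 16 of the 40 neither core was found, among them Irf7, Irf9, Ifi44 and Oasl2. Isg15 held 3 overlapping ISRE cores, the nearest starting 66 bases before the start. The 18 genes with an ISRE core had a median log2 difference between replicates of 2.20 and the 22 without one of 1.60. Both sets spanned nearly the whole range, with Gbp3 highest at 4.20 and B2m lowest at 0.70 among those with a core, and Ifi44 highest at 4.96 and Ifit2 lowest at 0.36 among those without. A match is a description of the letters in the window and not of binding.

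All 49 genes had more TPM in replicate 2 than in replicate 1, in protrusions and in cell bodies alike. In 47 of them both libraries of replicate 2 lay above both libraries of replicate 1, a pattern that 12.6% of the 11400 genes with a mean of at least 1 TPM showed. The exceptions, Irf1 and B2m, had both libraries of protrusions below both libraries of cell bodies, as did 37.0% of all genes. Both libraries of protrusions lay above both of cell bodies in no member and in 26.4% of all genes. A gene with both libraries of replicate 2 above both of replicate 1 cannot show either order of the fractions. That held for 47 of the 49 members, so these counts of members cannot be compared with the shares of all genes. Summed over the 49 genes, the level was 3654 TPM in replicate 2 and 1284 TPM in replicate 1 of protrusions, and 5163 and 1879 TPM in replicates 2 and 1 of cell bodies. At least 10 TPM was reached by 40 and 42 of the 49 genes in replicate 2, in protrusions and in cell bodies, and by 16 genes in each fraction of replicate 1.

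**Figure D1:**
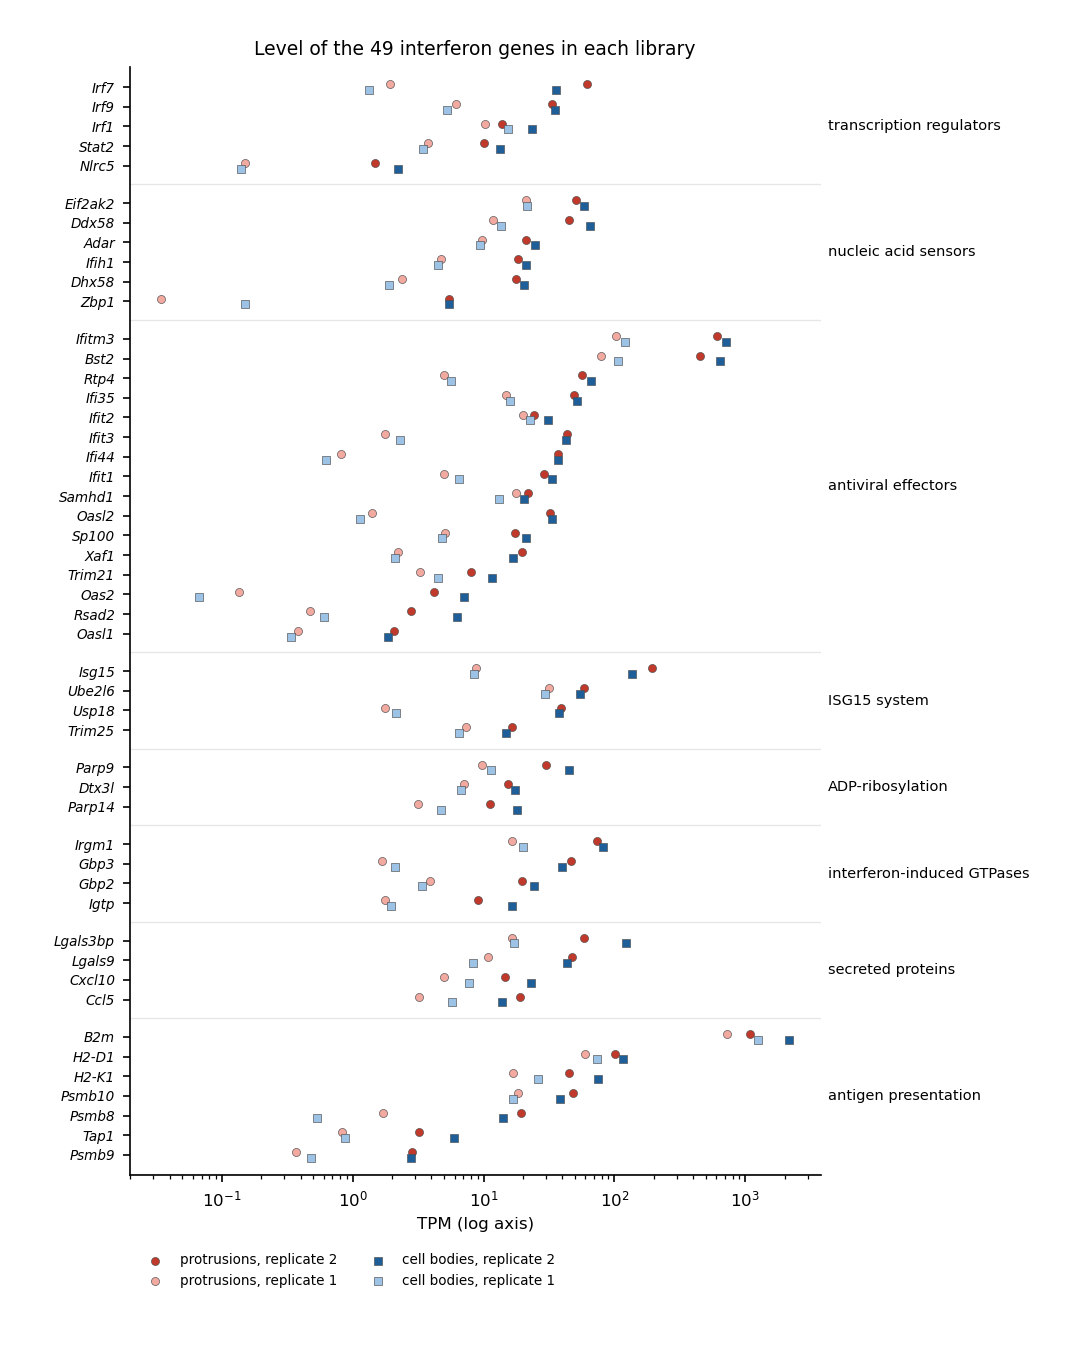
TPM (log axis) of each of the 49 genes in the 4 libraries, grouped by role; circles are protrusions and squares cell bodies, dark symbols replicate 2 and pale symbols replicate 1. Dark symbols lie to the right of pale ones of the same shape in every row, and the 2 fractions of one replicate mostly lie close together, as for Ifi44 at 37.1 and 37.4 TPM in replicate 2.

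The size of the replicate difference was measured on log2(TPM + 0.5), a scale that understates differences of low genes. Nlrc5 fell below the mean of 1 TPM and is left out of these counts. Among the other 48 genes, the median difference of replicate 2 minus replicate 1 was 1.87 in protrusions and 2.17 in cell bodies, against medians over all genes of -0.07 and 0.08. A difference of at least 2-fold upward was seen in 42 of 48 genes in protrusions (87.5%), in 42 in cell bodies, and in 42 in both. Over all genes the shares were 1.36% in protrusions, 1.89% in cell bodies and 1.06% in both. None of the 48 was 2-fold lower in replicate 2 in either fraction, as were 1.4% of all genes in protrusions and 0.421% in cell bodies. The 6 genes short of 2-fold were Ifit2, Irf1, Samhd1, B2m, H2-D1 and Ube2l6.

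The difference seen in protrusions was close to that in cell bodies of the same replicates. Across the 48 genes the 2 differences correlated with a Pearson's r of 0.94 and a Spearman's rho of 0.92, which describes genes measured in the same 4 libraries. In 40 of 48 genes they were within 0.5 of each other. Ccl5 had the largest excess in protrusions, by 1.19, and Lgals3bp the largest excess in cell bodies, by 1.03. Genes at a lower level in replicate 1 tended to differ more, with a rho of -0.55 between the difference and the log2 level in replicate 1, a level that enters the difference itself.

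**Figure D2:**
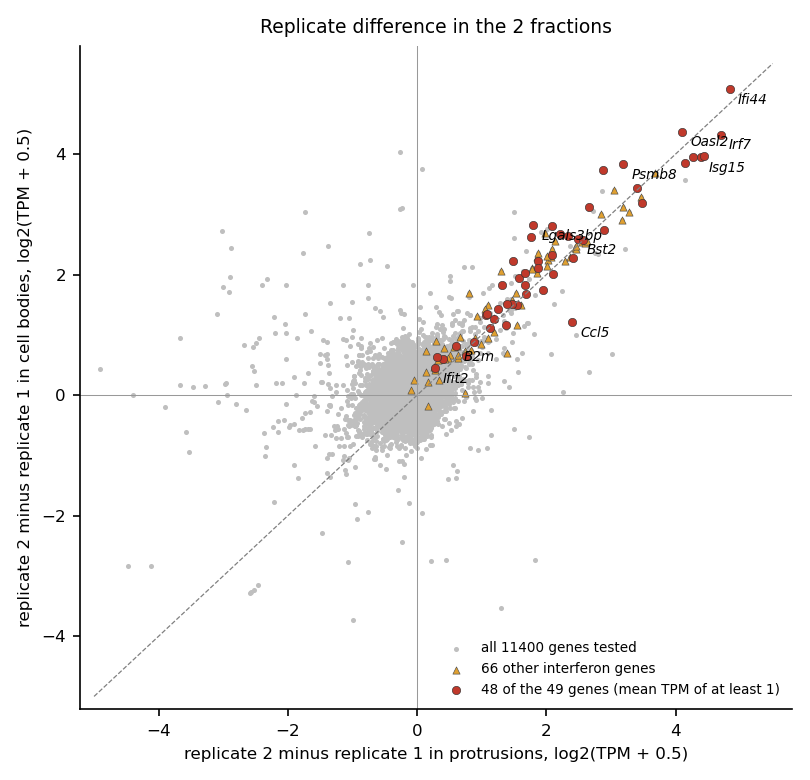
Difference of replicate 2 minus replicate 1 on log2(TPM + 0.5) in protrusions (horizontal) and in cell bodies (vertical), for all 11400 genes tested (grey), 66 other interferon genes (triangles) and 48 of the 49 genes (red); the dashed line marks equal differences. All red points lie in the upper right quadrant, up to Ifi44 at 4.84 in protrusions and 5.07 in cell bodies, and Ccl5 lies farthest below the line.

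The transcription regulators spanned nearly the whole range. Irf7, which amplifies interferon production once it is induced, stood at 62.1 TPM in replicate 2 and 1.91 TPM in replicate 1 of protrusions, and at 35.9 and 1.33 TPM in replicates 2 and 1 of cell bodies. That is a ratio of 32.4 in protrusions (95% counting interval 24.4 to 44.2) and 27.1 in cell bodies (19.6 to 38.5). These intervals are exact Clopper-Pearson intervals from the reads and cover counting error only. Irf9, which binds DNA for the complex of STAT proteins formed after type I interferon, was at 33.2 and 6.17 TPM in replicates 2 and 1 of protrusions and at 35.2 and 5.26 TPM in those of cell bodies. Stat2, its partner in that complex, lay between 10.1 and 13.5 TPM in replicate 2 and between 3.42 and 3.76 TPM in replicate 1. Irf1, a factor that responds most to interferon gamma, moved least of the group, with 13.8 and 10.3 TPM in replicates 2 and 1 of protrusions and 23.5 and 15.3 TPM in those of cell bodies. Nlrc5, the transactivator of MHC class I genes, had 1.47 and 2.21 TPM in the 2 libraries of replicate 2 and 0.149 and 0.140 TPM in those of replicate 1.

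All 6 nucleic acid sensors were at least 2-fold higher in replicate 2 in both fractions. Zbp1, a sensor of Z-form nucleic acid, rested on 200 reads in replicate 2 and 1 read in replicate 1 of protrusions, and on 152 and 5 reads in replicates 2 and 1 of cell bodies. With so few reads its ratio is loose, at 159 in protrusions (28.1 to 6293) and 36.2 in cell bodies (15.2 to 113). Dhx58, which encodes LGP2 and modulates the other RIG-I-like receptors, had 17.8 and 2.40 TPM in replicates 2 and 1 of protrusions, and 20.3 and 1.88 TPM in those of cell bodies. Ddx58, which encodes RIG-I itself, had 44.9 and 11.9 TPM in replicates 2 and 1 of protrusions, and 65.4 and 13.6 TPM in those of cell bodies. Eif2ak2, the kinase PKR that halts translation on double-stranded RNA, was the most abundant sensor by mean level, with 50.7 and 21.1 TPM in protrusions and 58.7 and 21.6 TPM in cell bodies of replicates 2 and 1. Adar, which edits double-stranded RNA, and Ifih1, which encodes MDA5, differed by 1.09 and 1.86 on the log2 scale in protrusions.

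The antiviral effectors, the largest group with 16 genes, held both the strongest and the weakest differences. Ifi44 had 37.1 and 0.815 TPM in replicates 2 and 1 of protrusions, and 37.4 and 0.624 TPM in those of cell bodies, which is a ratio of 45.5 (32.1 to 66.7) and of 59.9 (41.3 to 90.5). Oasl2, an oligoadenylate synthetase-like protein, had 32.0 and 1.39 TPM in replicates 2 and 1 of protrusions and 33.4 and 1.14 TPM in those of cell bodies. The 2 most abundant effectors act at membranes: Ifitm3 blocks fusion of entering virus and Bst2, or tetherin, holds budding particles at the cell surface. Ifitm3 reached 610.0 TPM in replicate 2 and 103 TPM in replicate 1 of protrusions, and 717 and 120.0 TPM in replicates 2 and 1 of cell bodies. Bst2 reached 449 and 79.2 TPM in protrusions of replicates 2 and 1, and 640 and 106 TPM in cell bodies.

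The 3 members of the Ifit cluster on chromosome 19, whose products bind viral RNA, differed unequally although they lie in a row. Their differences in protrusions were 0.27 for Ifit2, 4.27 for Ifit3 and 2.42 for Ifit1, and in cell bodies 0.45, 3.95 and 2.28. Ifit2 stood at 24.5 and 20.2 TPM in replicates 2 and 1 of protrusions, and at 31.2 and 22.7 TPM in those of cell bodies, so that it was already abundant in replicate 1. Reads of Ifit3 may be shared with its near-identical copy I830012O16Rik, which was not on the list and had 18.8 and 0.589 TPM in replicates 2 and 1 of protrusions, so its own level is uncertain. Samhd1, which depletes nucleotides, was the other effector short of 2-fold, between 20.4 and 21.9 TPM in replicate 2 and between 13.1 and 17.6 TPM in replicate 1. The remaining effectors, from Oasl1 at the lowest mean level to Rtp4, differed by 1.18 to 3.40 in protrusions and by 1.26 to 3.74 in cell bodies.

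Isg15, a ubiquitin-like protein that is attached to other proteins, had the highest level of its system in replicate 2. It stood at 195 and 8.82 TPM in replicates 2 and 1 of protrusions, and at 137 and 8.41 TPM in those of cell bodies, a ratio of 22.1 (17.9 to 27.5) and of 16.3 (13.3 to 20.2). Usp18, the protease that removes Isg15 and damps receptor signalling, was at 39.2 and 1.76 TPM in replicates 2 and 1 of protrusions and at 38.1 and 2.16 TPM in those of cell bodies. Ube2l6, the conjugating enzyme for Isg15, differed less, with 58.4 and 31.4 TPM in replicates 2 and 1 of protrusions and 54.7 and 29.5 TPM in those of cell bodies. Trim25, a ubiquitin ligase that acts on RIG-I, differed by 1.12 in both fractions.

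Among the interferon-induced GTPases, which attack the membranes of intracellular pathogens, Gbp3 differed most. It had 46.3 and 1.67 TPM in replicates 2 and 1 of protrusions, and 40.0 and 2.09 TPM in those of cell bodies. Its neighbor Gbp2, 47450 bases away on chromosome 3, had 19.7 and 3.86 TPM in replicates 2 and 1 of protrusions, and 24.2 and 3.38 TPM in those of cell bodies. Irgm1 was the most abundant, with 73.3 and 16.6 TPM in replicates 2 and 1 of protrusions and 81.9 and 19.9 TPM in those of cell bodies. The Gbp genes form a family of similar sequence, and how the counting split reads among copies was not stated.

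Parp9, Dtx3l and Parp14 lie together on chromosome 16 (chr16:35832877-35972621, mm10) and act in ADP-ribosylation, with Dtx3l the ubiquitin ligase that partners Parp9. Parp9 had 30.3 and 9.81 TPM in replicates 2 and 1 of protrusions and 45.1 and 11.4 TPM in those of cell bodies. Parp14 had 11.1 and 3.17 TPM in protrusions of replicates 2 and 1, and 18.0 and 4.73 TPM in cell bodies. Dtx3l differed least of the trio, with 15.4 and 7.14 TPM in replicates 2 and 1 of protrusions and 17.4 and 6.68 TPM in those of cell bodies. Parp9 and Dtx3l overlap at their starts on opposite strands, and whether the counting used strand was not stated, so reads there may count for either.

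The 4 genes of secreted proteins were at least 2-fold higher in replicate 2 in both fractions. Lgals3bp, a glycoprotein that binds galectin-3, had 58.2 and 16.5 TPM in replicates 2 and 1 of protrusions, and 123 and 17.1 TPM in those of cell bodies. Lgals9, which encodes galectin-9, had 47.4 and 10.8 TPM in replicates 2 and 1 of protrusions, and 43.4 and 8.26 TPM in those of cell bodies. The T cell chemokine Cxcl10 had 14.7 and 4.98 TPM in replicates 2 and 1 of protrusions and 23.2 and 7.78 TPM in those of cell bodies. Ccl5, also a chemokine, rested on 172 and 23 reads in replicates 2 and 1 of protrusions and on 96 and 47 reads in those of cell bodies.

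The antigen presentation genes spanned from B2m and H2-D1, short of 2-fold, to Psmb8, with the largest difference of the group. B2m, the light chain of every class I molecule, was the most abundant of the 49 genes, with 1095 and 726 TPM in replicates 2 and 1 of protrusions and 2175 and 1241 TPM in those of cell bodies. Its ratio was 1.51 in protrusions (1.47 to 1.55) and 1.75 in cell bodies (1.72 to 1.79). The heavy chain H2-D1 had 101 and 59.2 TPM in replicates 2 and 1 of protrusions and 117 and 74.1 TPM in those of cell bodies, and H2-K1 had 45.1 and 16.9 TPM in protrusions and 75.1 and 26.2 TPM in cell bodies of the same replicates. The class I genes share long stretches of sequence, so the split between H2-K1, H2-D1 and their relatives is uncertain. Tap1, a subunit of the transporter that feeds peptides to class I, had 3.23 and 0.829 TPM in replicates 2 and 1 of protrusions and 5.96 and 0.879 TPM in those of cell bodies.

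Interferon also exchanges the catalytic subunits of the proteasome, and Psmb8, Psmb9 and Psmb10 take the places of Psmb5, Psmb6 and Psmb7. Psmb8 had 19.5 and 1.696 TPM in replicates 2 and 1 of protrusions, and 14.1 and 0.530 TPM in those of cell bodies. Its share of the summed TPM of Psmb8 and Psmb5 was 7.02% and 0.790% in protrusions of replicates 2 and 1, and 5.55% and 0.245% in cell bodies. For Psmb10 the share of its pair was 10.6% and 4.66% in protrusions and 8.63% and 4.06% in cell bodies of replicates 2 and 1. Psmb9 reached at most 1.04% of its pair and 39 reads in a library. Among the constitutive partners none of the 3 passed the test between replicates in limma, with Psmb5 at 258 and 213 TPM in replicates 2 and 1 of protrusions and 240.2 and 216 TPM in those of cell bodies. The starts of Psmb9 and Tap1 lie 225 bases apart on opposite strands of chromosome 17 (34187330 and 34187555, mm10), and both genes were higher in replicate 2 in both fractions.

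**Figure D3:**
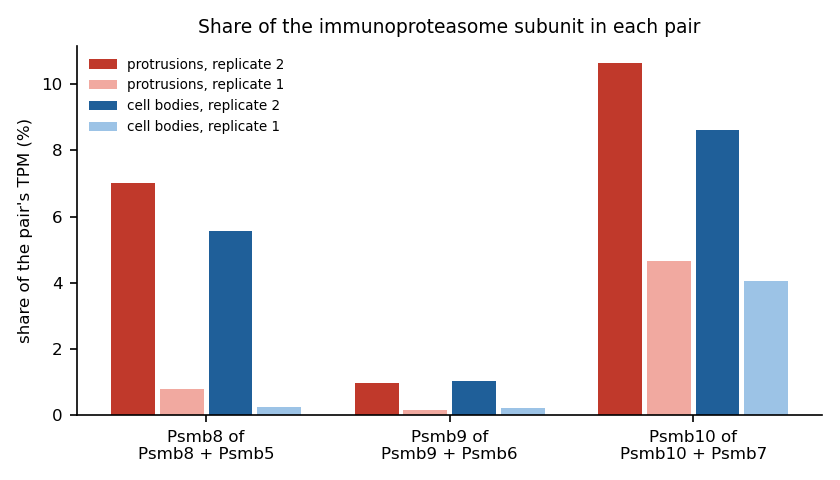
Share of the interferon-inducible subunit in the summed TPM of the inducible and the constitutive subunit (%), 1 bar per library, with protrusions in red, cell bodies in blue and replicate 2 darker. In each pair the bars of replicate 2 are above those of replicate 1, and none passes 10.6%.

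Whether the replicate difference reached beyond the 49 genes was asked of 90 other interferon genes, none of them a member. Of these, 85 were in the table and 66 had a mean of at least 1 TPM. Both libraries of a replicate came from the same inserts, so a test between replicates sees no spread between independent cultures. Its p-values reflect how far the replicate difference varied between the fractions. In limma with fraction as a term, 43 of 66 (65.2%) were higher in replicate 2 and 0 lower, at an adjusted p under 0.05 over all genes, whereas 1.5% of all genes were higher and 0.526% lower. At an unadjusted p under 0.05, 57 were higher and 0 lower. Limma voom on the recovered reads called 55 higher and 0 lower, against 2.89% and 1.45% of all genes. That voom fit took its variance from all genes together and did not use the spread of single genes. The median difference was 1.27, against 0.00 for all genes. At least 2-fold more TPM in replicate 2 was seen in 38 of the 66 genes in protrusions and in 38 in cell bodies. With only genes of at least 5 TPM, 26 of 43 were called, and the median difference was lower, at 0.93. This list too was drawn up with earlier results known.

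Oas1a, an oligoadenylate synthetase, had 20.9 and 1.18 TPM in replicates 2 and 1 of protrusions and 19.3 and 1.03 TPM in those of cell bodies. It rose by 3.68 ± 0.21 (SE) on the log2 scale in replicate 2 over replicate 1, with an adjusted p of 2.19e-06 in limma. The apolipoproteins Apol9a and Apol9b rose by 3.38 and 3.15, with adjusted p-values of 3.43e-06 and 7.49e-06 in limma, but they are near-identical copies and their split is uncertain. Phf11d rose by 2.56 and the nonclassical class I gene H2-T23 by 2.59, with adjusted p-values of 5.66e-06 and 9.39e-06. Psme1 and Psme2, which form the proteasome activator PA28, rose by 0.93 ± 0.12 and 0.92 ± 0.12 (SE), with adjusted p-values of 0.00139 and 0.00148. Ifitm2, the most abundant gene of this list, did not pass the test. Its level was 279.5 and 249 TPM in replicates 2 and 1 of protrusions and 241 and 274 TPM in those of cell bodies, a difference of -0.01 with a 95% interval of -0.29 to 0.28.

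Lists of receptors and kinases, of the sensing pathway and of NF-kB targets were also examined. On these lists limma on log2(TPM + 0.5) called no gene different between replicates. The lists leave out the members Ddx58, Ifih1, Irf7, Irf9 and Stat2, which also act in sensing or signalling and were higher in replicate 2. Only 2 of 21 interferon genes were in the table, Ifne and Ifnz, each with 1 read in 1 library and listed at 0 in the other 3. None of the 8 receptor and kinase genes passed the test in limma in either direction, with 0 higher and 3 lower at an unadjusted p under 0.05, and 1 lower by limma voom. Jak1 lay between 75.5 and 83.4 TPM in protrusions and between 73.7 and 87.1 TPM in cell bodies, and its difference was 0.05 with an interval of -0.26 to 0.35. Ifngr2, a chain of the receptor for interferon gamma, had 79.9 and 76.8 TPM in replicates 2 and 1 of protrusions and 85.5 and 80.1 TPM in those of cell bodies. Of 11 genes of the sensing pathway upstream of interferon, among them Mavs, Tbk1 and Irf3, 0 passed, with 3 higher and 0 lower at an unadjusted p under 0.05, and 1 higher by limma voom. Of 13 targets of NF-kB, which inflammatory signals induce, 0 passed as well, with 2 higher and 1 lower at an unadjusted p under 0.05, and 1 higher by voom. The list medians were -0.14, 0.13 and 0.19. A p that missed the threshold does not show that a gene was equal in the replicates.

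**Figure D4:**
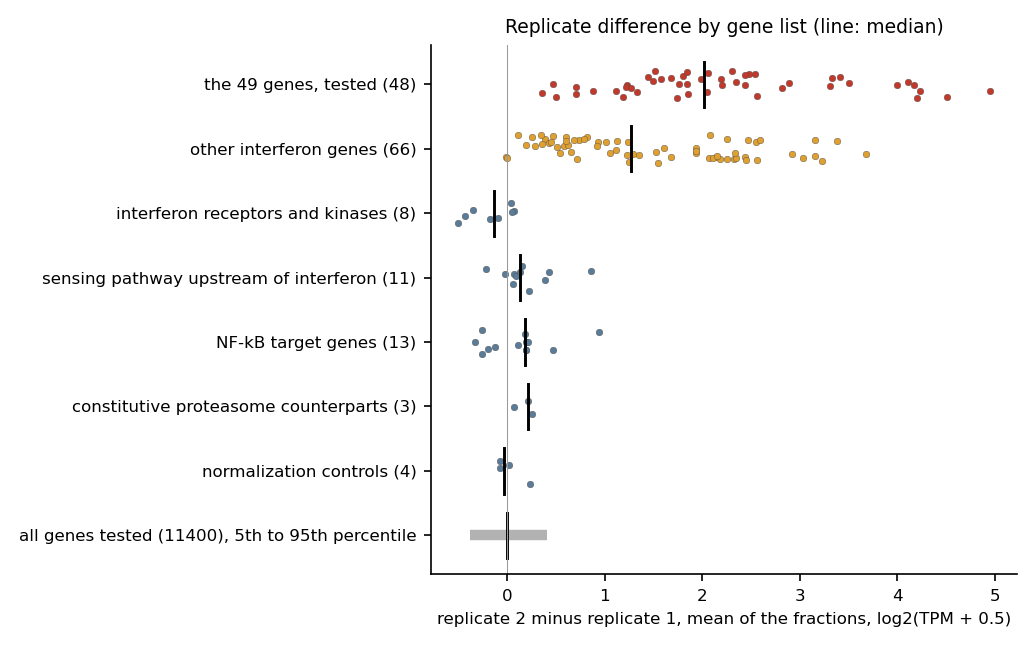
Difference of replicate 2 minus replicate 1 on log2(TPM + 0.5), averaged over the fractions, for the genes of each list with a mean of at least 1 TPM; points are genes, vertical lines medians, and the grey bar spans the 5th to the 95th percentile of all 11400 genes. The 48 members and the 66 other interferon genes reach medians of 2.02 and 1.27, and the grey bar runs from -0.38 to 0.41.

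Interferon genes also filled the top of the ranking by the averaged difference over all genes. Of the 20 genes highest in replicate 2, 11 were members and 7 were on the other list, and of the first 100 genes, 36 and 31 were. Both lists were drawn up with earlier results known, so these counts are a description and no independent evidence. The 171 genes called higher in replicate 2 in limma held 83 on neither list, 13 of them microRNA genes. Outside the microRNA genes, the largest difference was that of I830012O16Rik, the near-identical copy of Ifit3. It rose by 3.86, with an adjusted p of 4.22e-06 in limma. Being on neither list therefore does not set a gene apart from the interferon genes. Chosen after their values were seen, Apod, Gsta4, Aldh3a1 and Mt2 rose by 3.12, 2.56, 2.42 and 2.31, with adjusted p-values of 6.63e-05, 3.92e-05, 3.92e-05 and 7.14e-05 in limma. Apod is a lipocalin, Gsta4 and Aldh3a1 detoxify aldehydes, and Mt2 is a metallothionein. The fibroblast markers Dcn and Col1a1, also named after their values were seen, were called higher too, 2 of the 5 tested on that list, whose summed level was 579 and 744 TPM in protrusions of replicates 2 and 1 and 946 and 832 TPM in cell bodies. Liver transcripts summed to 94.9 TPM in protrusions of replicate 1 and to at most 4.03 TPM in cell bodies. The members' median difference was 1.87 in protrusions and 2.17 in cell bodies. The part of any of these genes, or of the liver transcripts, in the interferon pattern was not tested.

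Between protrusions and cell bodies no member passed the test unless the replicate entered the fit. In limma without the replicate as a term, 0 of 48 genes were higher and 0 lower in protrusions, as were 2.99% and 4.25% of all genes. At an unadjusted p under 0.05, 0 were higher and 2 lower, and limma voom called 0 in either direction, against 6.80% of all genes higher and 7.80% lower. The median difference of protrusions minus cell bodies was -0.13, against -0.07 for all genes. In this fit the spread between replicates enters the error, and for these genes it was wide. Leaving out a library moved the median, to -1.22 without protrusions of replicate 2 and 0.82 without protrusions of replicate 1. It was 0.82 without cell bodies of replicate 2 and -1.32 without cell bodies of replicate 1. Each of these fits left the replicates unequal between the fractions, so part of the replicate difference entered the fraction difference.

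Both fractions of a replicate came from the same inserts, so the fit was repeated with the replicate as a block. Then 1 gene was called higher (2.08%) and 5 lower (10.4%) in protrusions, against 8.08% and 13.3% of all genes, so that neither share exceeded that of all genes in this fit. Limma voom with the block, which did not use the spread of single genes, called 3 higher (6.25%) and 10 lower (20.8%), against 16.1% and 18.0% of all genes. B2m had the lowest adjusted p, at 0.00142, with a difference of -0.88 ± 0.13 (SE). Its libraries of protrusions, at 1095 and 726 TPM, lay below those of cell bodies, at 2175 and 1241 TPM, and it was called under all 6 other settings with the block. H2-K1 was lower by the same fit, at -0.67 with an adjusted p of 0.00829, and was called under all 6 settings, although its 2 groups overlapped across replicates.

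The other 4 calls were each lost under 1 of the 6 settings. Irf1 was lower in protrusions at -0.65, Cxcl10 at -0.62 and Bst2 at -0.46, with adjusted p-values of 0.0217, 0.0338 and 0.0188 in limma with the block. Without the filter on level the adjusted p was 0.0656 for Irf1 and 0.0962 for Cxcl10, and with libraries centred on their medians it was 0.0507 for Bst2. Psmb8 was higher in protrusions at 0.77, with an adjusted p of 0.0411 with the block and 0.133 without the filter. Its call rests on 406 and 28 reads in protrusions of replicates 2 and 1 and 224 and 10 reads in cell bodies. Other Psmb subunits of the list did not pass, and Psmb10 stood at 48.3 and 18.3 TPM in protrusions of replicates 2 and 1, against 38.1 and 16.8 TPM in cell bodies.

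Within each replicate, protrusions and cell bodies were set side by side with 1 library each. The median difference of protrusions minus cell bodies was -0.19 in replicate 2 and -0.07 in replicate 1, against -0.14 and 0.00 for all genes. At least 2-fold lower in protrusions of replicate 2 were 2 of 48 members, Lgals3bp and Rsad2, and 6.98% of all genes. None was 2-fold higher there, against 1.48%. In replicate 1, Psmb8 was the 1 member at least 2-fold higher in protrusions, and none was 2-fold lower, against 1.32% and 1.03% of all genes. The sign was negative in both replicates for 21 genes (43.8%), positive in both for 10 (20.8%) and mixed for 17 (35.4%). Over all genes these shares were 44.3%, 32.7% and 22.9%.

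By counting intervals alone, 14 of the 49 genes (28.6%) had a ratio of protrusions to cell bodies below 1 in both replicates, as did 27.9% of all genes tested. Above 1 in both were 2 genes (4.08%), Lgals9 and Psmb8, against 21.3% of all genes. Whether an interval clears 1 depends on the reads. In replicate 1 these fell to 1 read for Zbp1 in protrusions and 4 reads for Oas2 in cell bodies. The shares of members and of all genes are therefore not directly comparable. The 14 included B2m, H2-K1, H2-D1, Bst2, Ifitm3, Ddx58 and Parp14. Ccl5 went opposite ways, with 19.0 TPM in protrusions and 13.9 TPM in cell bodies of replicate 2, and 3.21 and 5.74 TPM in those of replicate 1. Lgals3bp differed by -1.08 in replicate 2, with 58.2 TPM in protrusions and 123 TPM in cell bodies, but by -0.05 in replicate 1. Isg15 and Irf7 were higher in protrusions of replicate 2, with ratios of 1.42 (1.33 to 1.52) and 1.73 (1.60 to 1.88), whereas in replicate 1 their intervals of 0.779 to 1.41 and 0.923 to 2.27 held 1. Whether the ratio differed between replicates cannot be tested with 1 library of each kind.

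**Figure D5:**
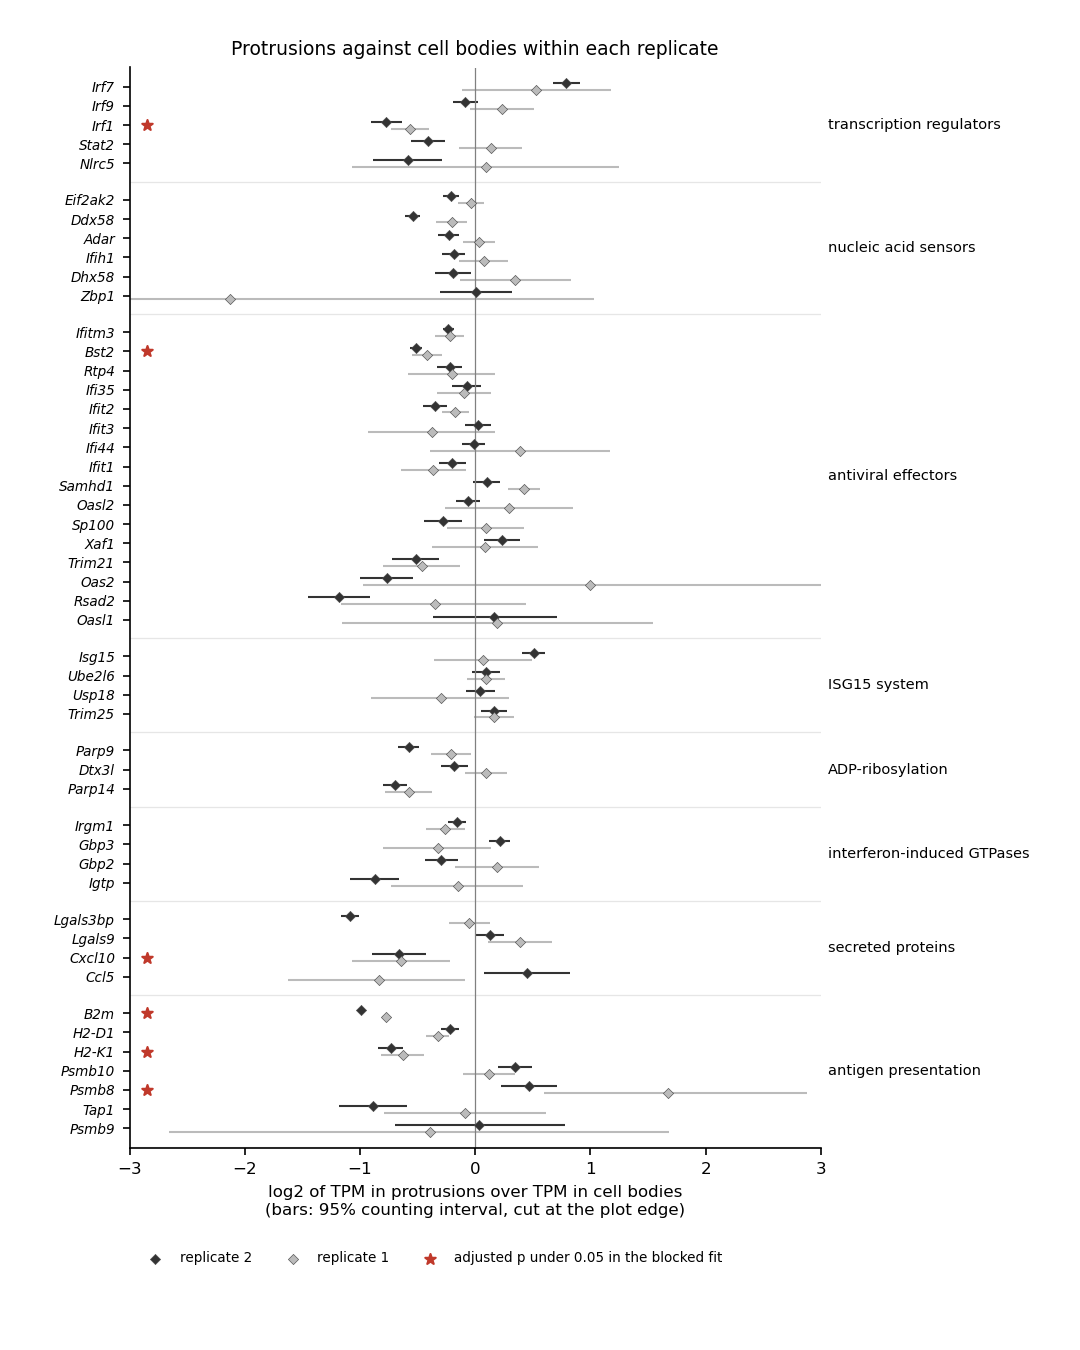
log2 of the ratio of TPM in protrusions to TPM in cell bodies for each of the 49 genes, dark for replicate 2 and pale for replicate 1; bars are 95% counting intervals and stars mark an adjusted p under 0.05 in limma with the replicate block. Most points lie within 1 of 0, long bars belong to genes with few reads and end at the plot edge, B2m lies left of 0 in both replicates and Psmb8 right of it, and Ccl5 lies on opposite sides.

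The same contrast was made for the other interferon genes. Of 66 tested, 0 were called in either direction without the block, with 1 higher and 3 lower at an unadjusted p under 0.05, while limma voom called 1 higher and 2 lower. With the block 0 were higher and 6 lower, Erap1, H2-M3, Pnpt1, Tor3a, Samd9l and Slfn9. Erap1, which trims peptides for class I and was chosen after its values were seen, was lowest at -1.12 with an adjusted p of 0.00172 in limma. It had 25.6 and 20.8 TPM in protrusions of replicates 2 and 1, against 69.6 and 37.0 TPM in cell bodies.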

How the data were processed

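RNA-seq of YUMM1.7 protrusions (2 libraries) and cell bodies (2 libraries) was analyzed from the table the authors deposited. It gives TPM per gene and library and the authors' mean log2 CPM per gene. Per the submitters' processing notes, reads were processed with FastQC, STAR and featureCounts on mm10. The methods of the study name TopHat 2.0.12, and which aligner made the table is not settled. The remaining columns hold the authors' own fold changes, test statistics, p-values and FDR, and were not used. TPM is scaled to library totals, so a gene's value also depends on the others.

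Whole reads were recovered from the TPM ratios, up to a whole multiple that the deposited mean log2 CPM set. For 16537 of 16537 genes they matched the TPM ratios within 0.01 reads. This match does not check the multiple, on which the width of the counting intervals depends. Totals were 25854943 to 30994908 reads per library. Ratios of single libraries carry 95% Clopper-Pearson intervals from these reads. There are no molecular identifiers, so the intervals cover counting error only.

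Tests used limma 3.58.1 in R 4.3.3 with a mean-variance trend on log2(TPM + 0.5), for 11400 genes with a mean of at least 1 TPM, two-sided, with Benjamini-Hochberg adjustment over all of them. The fraction contrast was fitted without the replicate, and again with it as a block. Replicate numbers pair the libraries because protrusions and cell bodies of a number came from the same inserts. The deviations of libraries with the same number correlated at 0.45 across genes, and at 0.27 without interferon genes. The replicate contrast took fraction and replicate as terms, with 1 residual degree of freedom. As both libraries of a replicate share their inserts, its p-values measure no spread between independent cultures. Limma voom with both terms took its variance from all genes together, so the spread of single genes did not enter its p-values. Scripts were tested on simulated data.

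The members and gene lists were chosen with earlier results of these data known. Any member could be named. Values per library are given for the 2 highest by mean TPM and the 2 with the largest replicate difference in each of 8 role groups, and for members called between fractions. Named of the other interferon genes are the 5 with the smallest p for the replicate contrast and the 3 highest by mean TPM, and of other lists up to 3 by mean TPM. Alternatives were pseudocounts of 0.1 and 1, no filter or a mean of 5 TPM, median centring, the block, leaving out a library, and limma voom on recovered reads. Voom for the replicate contrast and with the block, and cell bodies alone, were added after seeing the data. Promoter sequences came from RefSeq (GRCm38.p6).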

Additional observations from a re-analysis of the deposited data

How the results depend on the processing

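Every member that passed the filter of a setting was higher in replicate 2 in both fractions, which covers 49 genes with no filter, 42 at a mean of at least 5 TPM and 48 under the other settings. With a pseudocount of 0.1 their median difference in protrusions was 2.13. Centring libraries on their medians gave a median of -0.048 between fractions in replicate 2. With the replicate block, 1 member was called higher and 5 lower in protrusions, and of the other interferon genes 6 were lower. Limma voom with the replicate block called 3 members higher and 10 lower, against 16.1% and 18.0% of all genes, with a median of -0.043, and 6 other interferon genes higher and 8 lower. Voom without the block gave medians of 0.00083 for members and 0.043 for the other interferon genes, of which it called 1 higher and 2 lower. At a mean of at least 5 TPM, 1 of the other interferon genes was lower in protrusions. At that level 26 of 43 were higher in replicate 2, with a lower median of 0.93. At least 2-fold higher were 21 in protrusions and 20 in cell bodies. In cell bodies alone, without protrusions replicate 1, their median was 1.46. Leaving out each library in turn, the median between fractions ranged from -1.32 to 0.82 for members and from -0.88 to 0.68 for the other interferon genes. Such fits carry part of the replicate difference into the fraction difference. They cannot tell whether the sign of a fraction difference is stable. The replicate contrast could not be refitted without a library, for want of residual degrees of freedom. The other 103 counts and medians under an alternative changed little in number or moved by less than a spread of medians. Little change took in 55 calls by limma voom against 43 for the other interferon genes in the replicate contrast. The spread was between replicates for fraction differences and between fractions for replicate differences. Of the 6 members called with the block, B2m and Irf1 stayed below 0 with each library left out of the fit without the block. Bst2 ranged from -1.76 to 0.83, Cxcl10 from -1.38 to 0.14 and H2-K1 from -1.42 to 0.081, each above 0 without protrusions replicate 1 or without cell bodies replicate 2. Psmb8 ranged from -1.14 to 2.69, below 0 without either of the other libraries. Within replicates 2 and 1 the differences were -0.51 and -0.42 for Bst2 and -0.64 and -0.59 for Cxcl10. They were -0.73 and -0.61 for H2-K1 and 0.45 and 1.09 for Psmb8. With 2 libraries a fraction and few reads for Zbp1, Oas2 and Psmb9, sizes of single genes are imprecise.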
